A study of Mus musculus with 4 samples.

Results

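Nuclei from inguinal white adipose tissue of young mice at day 3 and at day 14 of cold were compared, to ask which genes moved between early and late cold and in which class of nuclei. The members were the 8 hashed aliquots, of 24 in the series, that the authors' sample sheet gives as young and 3 days or young and 14 days of cold. The 2 aliquots of a mouse were summed, which gave 4 of 12 mice, 2 at each time. Of the 15329 barcodes in the series 5865 belonged to these mice, and 5592 of the 14631 nuclei kept for analysis.

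All mice were male C57BL/6, obtained as C57BL/6JN from the National Institute on Aging or as C57BL/6J from Jackson. All mice were first acclimated at 30 °C for 3 weeks, and were 9 weeks old (young) or 57 weeks old (aged) at the end of housing. The 3D mice then stayed at 30 °C for a further 11 days and spent 3 days at 6 °C, the 14D mice spent 14 days at 6 °C, and the thermoneutral (TN) mice stayed at 30 °C for 2 more weeks. Every mouse was housed singly over those last 2 weeks, and the inguinal lymph node was cut out before nuclei were prepared. Each of the 2 sequencing pools held 1 mouse of each group, and a mouse's replicate number (1 or 2) is the number of its pool. With 2 mice a side, the p-values rest on a spread that all mice of a fit share.

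In cold, beige adipocytes appear within subcutaneous white fat. These cells hold many mitochondria and uncoupling protein 1 (Ucp1), which lets protons back across the inner mitochondrial membrane so that fuel is burnt for heat. The fuel can come from stored triglyceride, which adrenergic signals release, and also from glucose, part of which adipocytes turn into new fatty acids by de novo lipogenesis. In that pathway Acly makes cytosolic acetyl-CoA from citrate, acetyl-CoA carboxylase (Acaca) makes malonyl-CoA, Fasn builds palmitate, and Elovl6 and Scd1 lengthen and desaturate it. The transcription factor ChREBP, the product of Mlxipl, is a main activator of these genes and binds E-box elements.

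The mice differed in depth. Total unique molecular identifiers (UMIs, 1 for each RNA molecule counted) per mouse were 2076187 and 2524291 at 3D and 4544300 and 5463124 at 14D, and the median per nucleus was 1263 and 1527 at 3D and 2093 and 3024 at 14D. Depth thus moved with time in both pools. Fits were repeated with nuclei thinned to 800 UMIs, which evens the depth per nucleus but not the number of nuclei. The 756 nuclei of these mice with fewer UMIs were left out there, 306 and 207 at 3D and 198 and 45 at 14D. Between 1227 and 1740 nuclei were kept per mouse. No barcode was repeated within a pool, and 11 were shared between the pools. Nuclei fell into clusters that were named adipocyte, fibroblast, immune, endothelial or skeletal muscle from marker genes, and 97.65% of nuclei had the same class when it was read from marker levels without clusters.

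Adipocyte nuclei made up 59.8% and 39.6% of nuclei in the 3D mice and 63.5% and 46.4% in the 14D mice, fibroblast nuclei 28.9% and 41.0% at 3D and 22.2% and 28.2% at 14D. The adipocyte share was thus higher and the fibroblast share lower at 14D within each pool, but the pools lay further apart than the times: the mean adipocyte share was 49.7% ± 14.2 (SD, n = 2) at 3D and 55.0% ± 12.1 at 14D. Immune nuclei were 7.01% and 10.4% at 3D and 8.16% and 11.4% at 14D. Endothelial nuclei were 3.43% and 5.79% at 3D and 5.46% and 11.8% at 14D, a rise of 2.03 percentage points in pool 1 and 5.97 in pool 2. No test of the shares was made. An exact two-sided permutation test within pools could not have given a p below 0.5 with 2 mice a side. A share says nothing of cell numbers in the depot.

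Adipocyte nuclei were clustered again without the genes that name sub-clusters and without the thermogenic and de novo lipogenesis lists. One sub-cluster was beige-like, with all 6 of its markers (Ucp1, Cidea, Ppargc1a, Esrrg, Gk and Prdm16) over 1.5-fold above the other adipocyte nuclei. Beige-like nuclei were 13.7% and 9.67% of adipocyte nuclei in the 3D mice and 32.4% and 27.0% in the 14D mice. The mean was 11.7% ± 2.87 (SD, n = 2) at 3D and 29.7% ± 3.79 at 14D, and the pools gave like differences of 18.7 and 17.4 percentage points. In TN mice the share was 1.54% and 1.24%. The Npr3-high-like nuclei, with natriuretic peptide clearance receptor (Npr3) and leptin (Lep) among their markers, were 31.2% and 27.4% at 3D and 29.2% and 22.3% at 14D. The unnamed sub-cluster 1, led by Vat1l and Gpx8, was 21.9% and 46.7% at 3D and 17.6% and 43.9% at 14D, so that it differed more between pools than between times. It had 2 lipogenic markers over 1.5-fold, under the 3 needed for a name. At a clustering resolution of 0.4 its match was named lipogenic and shared 1103 of its 2020 nuclei. With the left-out genes put back, the match was also named lipogenic and shared 1915. The unnamed sub-cluster 2 was 28.5% and 13.2% at 3D and 17.2% and 2.36% at 14D. It was led by hemoglobin genes and had a median of 1033 UMIs per nucleus, the lowest of the large sub-clusters, so its lower share at 14D went with greater depth, whose part in it was not tested.

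**Figure D1:**
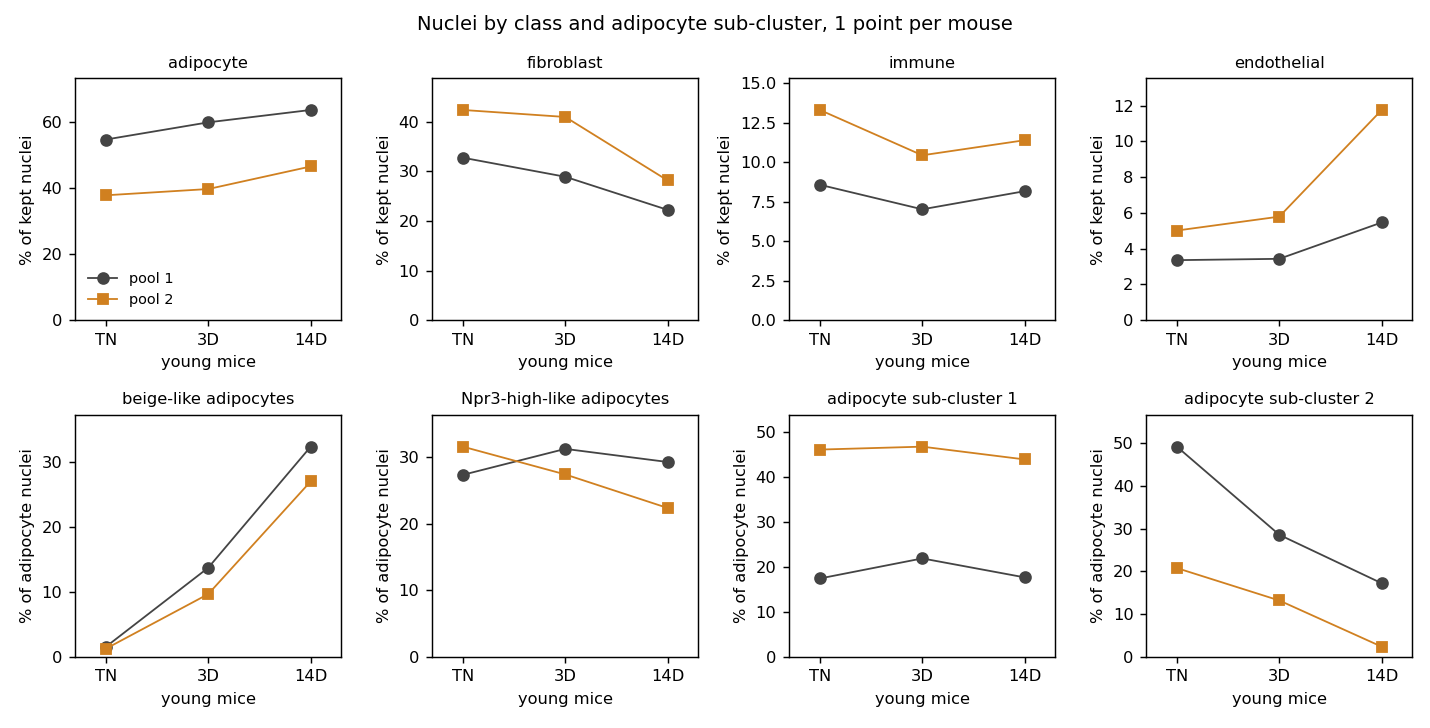
Share of nuclei (percent, axis from 0) of each class among all nuclei, and of each large sub-cluster among adipocyte nuclei, in young mice at TN, 3D and 14D. Each point is 1 mouse and each line joins the mice of 1 pool. The beige-like share rises from 3D to 14D in both pools, to 32.4% and 27.0%.

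Among all adipocyte nuclei of a mouse, summed, 59 genes passed the test between 14D and 3D, 48 higher and 11 lower at 14D. This was 0.574% of the 10276 genes tested (0.467% higher, 0.107% lower), with edgeR's quasi-likelihood test and a Benjamini-Hochberg adjusted p under 0.05. Levels are given as counts per 1000000 UMIs (CPM) of a class in 1 mouse, and changes as log2 of 14D over 3D. The genes that rose included Nav2, Atp8a1, Acot11, Acsl5 and Tkt, and those that fell included Cntfr, Zbtb16 and Slit3. In a sum over the class, more beige-like nuclei and more RNA of a gene per nucleus cannot be told apart. When beige-like nuclei were left out, 0 of 10032 genes passed, with 591 at an unadjusted p under 0.05. Of the 59 genes 57 could be tested there and all 57 kept their sign, with changes of 3.11 for Nav2, 2.41 for Acot11, 2.65 for Acsl5, 1.36 for Tkt and -1.51 for Slit3. The 59 were picked in sums that held these same nuclei, so the kept signs add no separate support.

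Elovl3, a fatty acid elongase induced by cold in brown fat (chromosome 19, 46131897 to 46135694, plus strand), had 0 UMIs in both 3D mice and 195 and 257 at 14D, at least 9.47-fold higher when each 3D aliquot that does not list it is given the 5 UMIs it can have held. Acsl5, which activates long-chain fatty acids (chromosome 19, 55251938 to 55297720, plus strand), had 19.0 and 10.7 CPM at 3D and 314 and 293 CPM at 14D, a rise of 4.39 (SE 0.459, adjusted p 0.00176). Acot11, a thioesterase that cleaves fatty acyl-CoA (chromosome 4, 106744555 to 106804998, minus strand), had 92.3 and 42.7 CPM at 3D and 673 and 466 CPM at 14D, a rise of 3.11 (SE 0.280, adjusted p 0.00143). In each of these genes both 14D mice stood above both 3D mice by several-fold. Acsl5 overlaps Zdhhc6 on the other strand, which rose too, by 1.56 (SE 0.235, adjusted p 0.0193). Whether any reads of the pair were mixed was not tested.

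Slc2a5, the fructose transporter, had 0 UMIs in both 3D mice and 87 and 186 at 14D, at least 5.72-fold higher. Tkt, transketolase of the pentose phosphate pathway (chromosome 14, 30548359 to 30574720, plus strand), had 498 and 381 CPM at 3D and 1366 and 1513 CPM at 14D, a rise of 1.72 (SE 0.207, adjusted p 0.00429). Gpd2, the mitochondrial glycerol-3-phosphate dehydrogenase, had 181 and 259.9 CPM at 3D and 595 and 717 CPM at 14D, a rise of 1.58 (SE 0.190, adjusted p 0.00429), and its cytosolic partner Gpd1 rose by 1.49 (SE 0.250, adjusted p 0.0294). Of the glycolytic enzymes, Eno1 had 64.5 and 69.1 CPM at 3D and 170.2 and 169 CPM at 14D and Pkm 56.4 and 38.5 CPM at 3D and 166 and 169 CPM at 14D, and their changes were 1.35 (SE 0.169, adjusted p 0.00552) and 1.81 (SE 0.234, adjusted p 0.00674). Ppp1r3b, which directs protein phosphatase 1 to glycogen, rose by 2.60 (SE 0.426, adjusted p 0.0266). In all of these the 2 groups did not overlap, which held for 41.1% of all genes tested. They were picked by a test of these same groups, so this adds no separate support.

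Nav2, a neuron navigator gene (chromosome 7, 48908716 to 49610090, plus strand), had the smallest p, with 47.5 and 14.2 CPM at 3D and 517 and 382 CPM at 14D, a rise of 3.99 (SE 0.362, adjusted p 0.00143). Sept9, a septin, had 54.3 and 24.9 CPM at 3D and 392 and 234 CPM at 14D and rose by 3.00 (SE 0.281, adjusted p 0.00143). Nav2, Sept9, Acot11 and Acsl5 were also among the 10 genes that led the beige-like sub-cluster. Atp8a1, a phospholipid flippase, had 100.5 and 81.2 CPM at 3D and 375 and 359 CPM at 14D, a rise of 2.01 (SE 0.184, adjusted p 0.00143). Sorcs2, a sorting receptor of the sortilin family, had 0.679 and 0 CPM at 3D and 59.8 and 62.7 CPM at 14D (adjusted p 0.00143). It went from 1 UMI at 3D to 421 at 14D, and 2 of the 3D aliquots did not list it. With 5 UMIs in each of those, 11 in all, the ratio was 16.0 (95% exact interval 8.87 to 32.4, counting error only). Hephl1, a copper oxidase of the ceruloplasmin family, had 0 UMIs in both 3D mice and 190 and 628 at 14D, at least 17.1-fold higher. Adcy10, the soluble adenylyl cyclase, rose by 2.48 (SE 0.216, adjusted p 0.00176) and Itpr2, a calcium release channel of the endoplasmic reticulum, by 1.69 (SE 0.200, adjusted p 0.00429).

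The genes that fell stood at or above their 3D levels in TN mice in several cases. Slit3, a secreted guidance ligand (chromosome 11, 35121224 to 35708507, plus strand), had 1905 and 2069 CPM at 3D and 674 and 434 CPM at 14D, against 4033 and 2374 CPM in the TN mice, and fell by 1.87 on the log2 scale (SE 0.354, adjusted p 0.0491). Zbtb16, the transcription factor PLZF, had 1793 and 1550.1 CPM at 3D and 692 and 672 CPM at 14D and 3917 and 2707 CPM at TN, a change of -1.29 (SE 0.213, adjusted p 0.0285). Cntfr, a subunit of the receptor for ciliary neurotrophic factor, had 67.9 and 62.7 CPM at 3D and 20.7 and 11.3 CPM at 14D, a change of -2.06 (SE 0.229, adjusted p 0.00276). Sctr, the secretin receptor, changed by -1.73 (SE 0.259, adjusted p 0.0191) and Gpt2, the mitochondrial alanine aminotransferase, by -1.29 (SE 0.175, adjusted p 0.00917). Every 14D mouse was below every 3D mouse in these genes, and the groups did not overlap in 41.1% of all genes tested. Since a test of these groups picked the genes, their order adds no separate support.

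**Figure D2:**
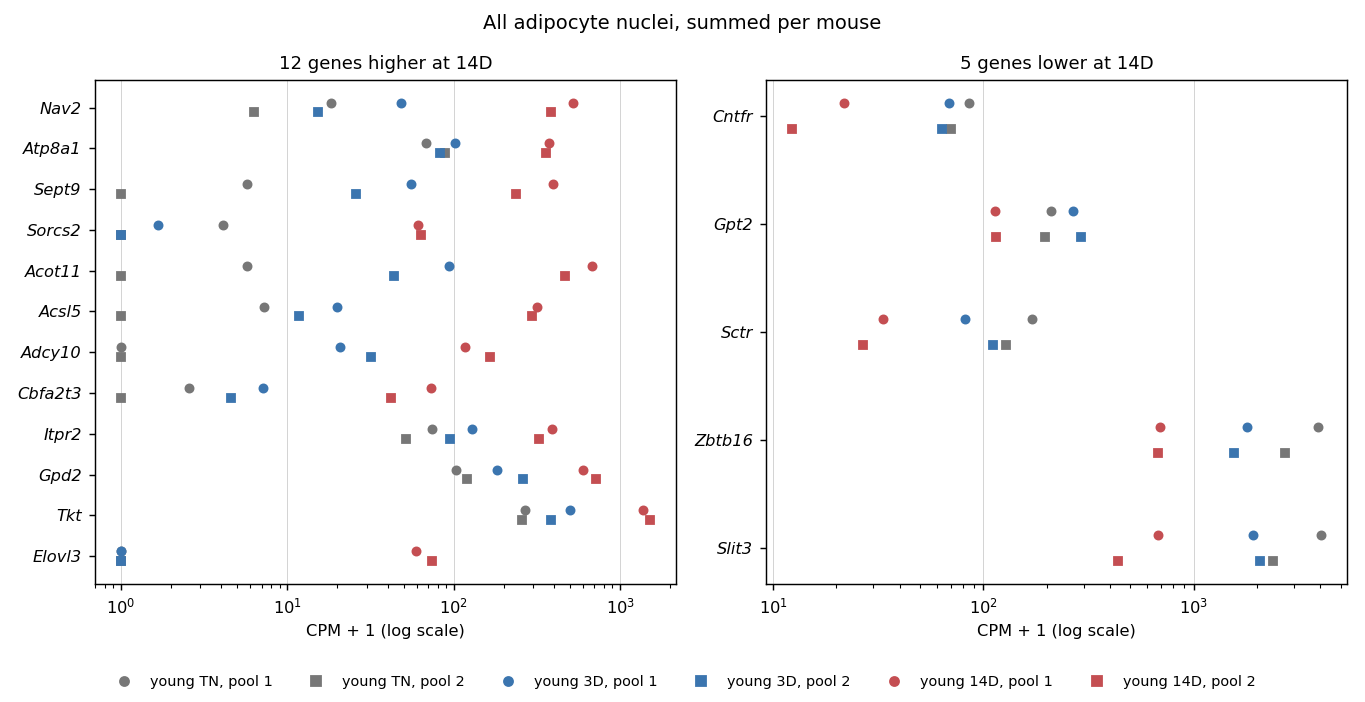
Level in CPM (log axis, plotted as CPM + 1) of named genes in the summed adipocyte nuclei of each young mouse at TN, 3D and 14D, 1 point per mouse. The 14D points of Nav2, Acsl5 and Acot11 lie above both 3D points, and those of Slit3 and Zbtb16 below.

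Read by the lists, the pattern in adipocytes was uneven. Of the 19 tested genes of de novo lipogenesis (of 20 listed), 3 rose (Elovl5, Mlxipl and Tkt) and none fell, yet all 19 were higher at 14D, with a median change of 1.40 against 0.015 over all genes tested. Acly had 197 and 261 CPM at 3D and 873 and 2843 CPM at 14D and a change of 2.90 (SE 0.847, adjusted p 0.214). Fasn had 596 and 378 CPM at 3D and 1287 and 1723 CPM at 14D, a change of 1.63 (SE 0.607, adjusted p 0.373), and Elovl6 174 and 136 CPM at 3D and 1415 and 2303 CPM at 14D, a change of 3.55 (SE 0.785, adjusted p 0.084). Acly thus differed between the 14D mice by more than 3-fold, and these genes did not pass although both 14D mice were above both 3D mice. Of 22 tested genes of glucose uptake and use, 3 rose (Eno1, Pkm and Gpd2), 20 were higher, and the median was 0.80.

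The thermogenic list was less uniform in the class sum. Of 19 tested genes 2 rose (Elovl3 and Acot11), 0 fell, 13 were higher and the median was 0.54. Ucp1 (chromosome 8, 83290352 to 83298452, plus strand) had 136 and 19.9 CPM at 3D and 198 and 169.7 CPM at 14D, a change of 1.46 (SE 0.542, adjusted p 0.411), so that the 3D mice differed from each other more than the times did. Gk, glycerol kinase, had 414 and 343 CPM at 3D and 488 and 212 CPM at 14D against 14.1 and 13.2 CPM in TN mice, and Ppargc1a, the coactivator of mitochondrial genes, had 212 and 416 CPM at 3D and 276 and 289.6 CPM at 14D. Their changes were -0.20 (SE 0.237, adjusted p 0.882) and -0.083 (SE 0.277, adjusted p 0.97). Most of the distance of Gk from TN was thus already present at day 3.

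In the other lists few adipocyte genes passed. Gpd1 rose among 10 genes of triglyceride synthesis, Acsl5 among 20 of fatty acid uptake and oxidation, and Nrp2, a neuropilin, among 5 tested of angiogenesis, while Zbtb16 fell among 13 adipocyte transcription factors. None passed among 16 of lipolysis and adrenergic input (median 0.034), 26 of the citric acid cycle and respiratory chain (median 0.27, 22 of them higher), 14 white adipocyte hormones and markers (median -0.29), 11 of insulin signalling (median -0.43) or 17 of the circadian clock (median 0.16). The log2 difference was 0.30 (SE 0.587, adjusted p 0.936) for Adipoq, -0.78 (SE 0.470, adjusted p 0.67) for Lep and 0.021 (SE 0.283, adjusted p 0.996) for Npr3. Nnat, which sits in the white adipocyte list and is imprinted, had 1069 and 1239 CPM at 3D and 333 and 323 CPM at 14D and 2914 and 2519 CPM at TN, a change of -1.82 (SE 0.376, adjusted p 0.0708).

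**Figure D3:**
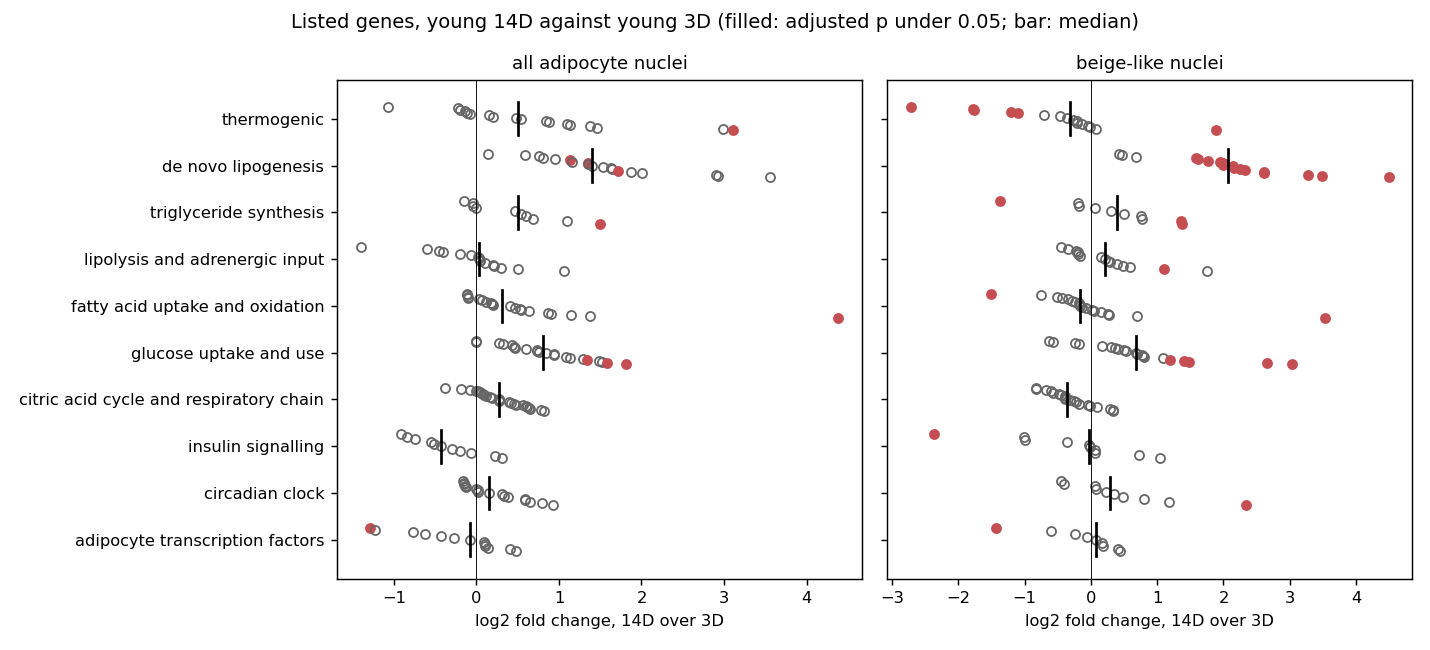
Change from 3D to 14D (log2, 14D over 3D) of the tested genes of each list in summed adipocyte nuclei and in beige-like nuclei, 1 point per gene, with the median of the points as a bar, genes that passed filled, and genes at 0 in a group left out. The de novo lipogenesis genes lie above 0 in both, with medians of 1.40 and 2.07, and the thermogenic genes lie mostly below 0 in the beige-like nuclei.

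The adipocyte count rested on single mice. It was 8 without young 14D replicate 2, 9 without young 3D replicate 2, 18 without young 3D replicate 1 and 35 without young 14D replicate 1, and 4 genes passed each time (Acot11, Atp8a1, Nav2 and Sept9). All 59 kept their sign, but the remaining mice had helped to pick them, so this adds no separate support. Hemoglobin genes summed to 542 CPM in the adipocyte nuclei of young 14D replicate 1 and to 23.1 to 59.6 in the other 3 mice. Fibroblast markers summed to 67.2 and 98.3 CPM at 3D and 76.4 and 63.2 at 14D and immune markers to 99.8 and 21.4 at 3D and 43.9 and 36.4 at 14D, with no order by time. In the whole-data clustering different clusters held the class at the 2 times. Cluster 1, led by Acacb and Dgat2, held 49.1% and 47.3% of adipocyte nuclei at 3D and 30.9% and 22.8% at 14D, while cluster 5, led by Acaca and Acacb, held 30.4% and 44.8% at 14D and cluster 7, led by Esrrg and Acacb, 32.9% and 30.5%.

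Most of the genes that passed did so in the beige-like nuclei. These numbered 103 and 47 in the 3D mice and 358 and 172 in the 14D mice, and 199 of the 3566 genes tested passed (5.58%), 141 higher (3.95%) and 58 lower (1.63%) at 14D. Of the de novo lipogenesis list 15 genes rose, among them Acly, Acaca, Fasn and Scd1, along with 5 genes of glucose and glycogen. Dio2, Ppargc1a, Esrrg, Gk and Kcnk3 of the thermogenic list fell, and Ucp1 did not pass. Dio2 and Gk passed whichever of the 4 mice was left out, but Dio2 did not pass with DESeq2. This fit used 6 mice, the 4 young cold mice and the aged 14D mice, since the others had under 10 beige-like nuclei. The lists of de novo lipogenesis and thermogenesis were kept out of the genes that defined the sub-cluster, and other genes named below were not.

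Before the values, the promoters of some of these genes are shown, because E-boxes are the element through which ChREBP acts and the cAMP response element is one through which adrenergic signals act. The 250 bases before the RefSeq start (assembly GRCm38.p6) were searched on both strands for the E-box CACGTG and the cAMP response element TGACGTCA, and a match is shown in capitals. Mlxipl encodes ChREBP, and of its 2 starts in RefSeq the upstream one holds the match, 98 bases before the start (chr5:135089640-135089889, plus strand). Elovl5 lengthens polyunsaturated fatty acids (chr9:77917115-77917364, plus strand), Slc25a1 exports citrate from mitochondria (chr16:17928220-17928469, minus strand), and Dio2 makes active thyroid hormone (chr12:90739039-90739288, minus strand). The first 3 rose and Dio2 fell.
Mlxipl: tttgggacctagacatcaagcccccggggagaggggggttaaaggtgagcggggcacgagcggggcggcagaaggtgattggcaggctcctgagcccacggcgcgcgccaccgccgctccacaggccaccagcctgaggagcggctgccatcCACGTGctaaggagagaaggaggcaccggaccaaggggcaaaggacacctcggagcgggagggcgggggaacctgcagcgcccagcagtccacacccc
Elovl5: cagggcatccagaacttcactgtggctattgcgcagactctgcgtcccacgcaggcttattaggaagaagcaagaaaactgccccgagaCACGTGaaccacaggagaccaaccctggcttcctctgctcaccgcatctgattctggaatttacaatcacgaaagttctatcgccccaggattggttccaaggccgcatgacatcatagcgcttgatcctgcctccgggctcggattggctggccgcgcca
Slc25a1: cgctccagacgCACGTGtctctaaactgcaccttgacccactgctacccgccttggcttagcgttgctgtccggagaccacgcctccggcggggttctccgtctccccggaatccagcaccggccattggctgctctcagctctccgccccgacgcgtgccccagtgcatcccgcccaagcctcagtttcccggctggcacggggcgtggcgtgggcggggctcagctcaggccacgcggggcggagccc
Dio2: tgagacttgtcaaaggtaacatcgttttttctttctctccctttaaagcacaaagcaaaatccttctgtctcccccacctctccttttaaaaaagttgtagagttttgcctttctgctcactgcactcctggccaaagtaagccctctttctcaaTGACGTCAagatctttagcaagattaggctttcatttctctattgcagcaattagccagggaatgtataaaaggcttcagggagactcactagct
The E-box was found in 3 of the 17 promoters matched for the lipogenic list (17.65%). For the thermogenic list it was found in 3 of 15 (20.0%), those of Acot11, Fgf21 and Gk, so it did not set the lipogenic list apart. It was found in 17 of 102 genes that rose (16.7%) and 4 of 45 that fell (8.89%), beside 10.4% of the 2856 tested genes with a promoter and 6.02% of all 32851 promoters. The cAMP response element was found in 1 of 102 genes that rose (0.98%, Pnpla3) and 1 of 45 that fell (2.22%, Dio2). It was found in 3.36% of tested genes, above both of these shares, and in 1.55% of all promoters. These are matches of letters in a short window and were not tested as sites.

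Of 18 tested genes of de novo lipogenesis (of 20), 15 rose and none fell, all 18 were higher at 14D, and the median was 2.07 against -0.016 over all genes tested. Acly (chromosome 11, 100476353 to 100528000, minus strand) had 120.3 and 489 CPM at 3D and 1793 and 4366 CPM at 14D, a rise of 3.49 (SE 0.285, adjusted p 8.96e-06). Acaca (chromosome 11, 84129672 to 84401651, plus strand) had 2743 and 3148 CPM at 3D and 15122 and 14210.2 CPM at 14D, a rise of 2.32 (SE 0.256, adjusted p 7.27e-05). Fasn (chromosome 11, 120805846 to 120824547, minus strand) had 348 and 362 CPM at 3D and 2002 and 2365 CPM at 14D, a rise of 2.61 (SE 0.243, adjusted p 3.47e-05). The 3 enzymes that lead from citrate to palmitate thus rose in both pools, and only Acly differed much within a time.

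Steps after palmitate rose too. Scd1 (chromosome 19, 44394455 to 44407879, minus strand) had 412 and 166 CPM at 3D and 2589 and 2796 CPM at 14D, a rise of 3.28 (SE 0.332, adjusted p 5.04e-05), and its paralog Scd2 went from 2 UMIs at 3D to 336 at 14D (adjusted p 0.000177), a ratio of 24.3 with a 95% exact interval of 6.66 to 201 for counting error only. Elovl6 (chromosome 3, 129532355 to 129638495, plus strand) had 944 and 997 CPM at 3D and 3059 and 4633 CPM at 14D, a rise of 1.94 (SE 0.245, adjusted p 0.000219). Elovl6 was already at 944 and 997 CPM in beige-like nuclei at 3D, against 81.2 and 69.9 in the other adipocyte nuclei of the same mice. Elovl5 had 50.7 and 19.6 CPM at 3D and 142 and 216 CPM at 14D and rose by 2.16 (SE 0.439, adjusted p 0.00768).

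Acss2, which makes acetyl-CoA from acetate, had 709 and 303 CPM at 3D and 2131 and 2521 CPM at 14D, and Slc25a1, the citrate carrier, 57.0 and 19.6 CPM at 3D and 135 and 213 CPM at 14D. Their rises were 2.14 (SE 0.347, adjusted p 0.00152) and 1.99 (SE 0.450, adjusted p 0.0162). Me1, the cytosolic malic enzyme that yields NADPH, had 342 and 401 CPM at 3D and 1899.9 and 2783 CPM at 14D, a rise of 2.62 (SE 0.341, adjusted p 0.000242), Tkt rose by 1.99 (SE 0.235, adjusted p 0.000122), and Pgd, of the oxidative pentose phosphate pathway, by 1.58 (SE 0.327, adjusted p 0.00861). G6pdx, the first enzyme of that pathway, did not pass, with a change of 0.69 (SE 0.526, adjusted p 0.555).

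Of the regulators, Mlxipl had 811 and 1036 CPM at 3D and 2714 and 2883 CPM at 14D, a rise of 1.61 (SE 0.229, adjusted p 0.000515). Thrsp, a lipogenic cofactor, rose by 1.77 (SE 0.300, adjusted p 0.00211) and Pnpla3, a lipid droplet protein, by 2.26 (SE 0.249, adjusted p 7.27e-05). Pnpla3 overlaps the predicted gene Gm49513 on the same strand, which rose as well, so their reads may be shared. Srebf1, the other main lipogenic factor, did not pass, with a change of 0.42 (SE 0.257, adjusted p 0.443), nor did Acacb, the carboxylase at the mitochondrion, with 0.48 (SE 0.241, adjusted p 0.326). The genes Insig1, Sc5d and Nsdhl of sterol synthesis and its control were named after their values were seen. Their rises were 3.49 (SE 0.467, adjusted p 0.000303), 2.27 (SE 0.384, adjusted p 0.00207) and 1.82 (SE 0.428, adjusted p 0.0202).

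Of 21 tested genes of glucose uptake and use 5 rose, 17 were higher and the median was 0.68. Hk2, the hexokinase that traps glucose, had 519 and 723 CPM at 3D and 1502 and 1929 CPM at 14D, a rise of 1.47 (SE 0.236, adjusted p 0.00148). Pygl, a glycogen phosphorylase, had 57.0 and 196 CPM at 3D and 756 and 1169 CPM at 14D, a rise of 3.04 (SE 0.327, adjusted p 7.01e-05), and Gbe1, the glycogen branching enzyme, had 918 and 919 CPM at 3D and 2370.1 and 2540.3 CPM at 14D, a rise of 1.41 (SE 0.237, adjusted p 0.00203). Enzymes of glycogen building and breakdown thus both rose. Pdk1, a kinase that restrains pyruvate dehydrogenase, rose by 2.65 (SE 0.524, adjusted p 0.00646), and Aldoa, aldolase, by 1.19 (SE 0.289, adjusted p 0.0244). Ppp1r3b, named after its values were seen, rose by 2.19 (SE 0.323, adjusted p 0.000671).

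The thermogenic list went the other way on balance. Of 17 tested genes (of 22) 2 rose, 5 fell and 14 were lower, and the median was -0.27. The 5 that fell were Dio2, Ppargc1a, Esrrg, Gk and Kcnk3. With DESeq2 2 of them passed, Esrrg and Gk. Ppargc1a no longer passed when the pool 2 mouse of 3D (-0.74) or of 14D (-1.03) was left out, Esrrg without young 14D replicate 2 (-0.95), and Kcnk3 without the pool 2 mouse of 3D (-0.63) or either 14D mouse (-1.07 and -1.17). Dio2 (chromosome 12, 90724552 to 90738438, minus strand) had 241 and 469 CPM at 3D and 61.9 and 42.4 CPM at 14D, a change of -2.72 (SE 0.488, adjusted p 0.00348). Ppargc1a (chromosome 5, 51454250 to 51567726, minus strand) had 893 and 3236 CPM at 3D and 575 and 472 CPM at 14D, a change of -1.77 (SE 0.373, adjusted p 0.0097), and differed within 3D by more than 3-fold. Esrrg, the estrogen-related receptor of oxidative tissues (chromosome 1, 187608791 to 188214885, plus strand), had 4497 and 4702 CPM at 3D and 2282 and 1724 CPM at 14D, a change of -1.20 (SE 0.239, adjusted p 0.00668).

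Gk (chromosome X, 85701937 to 85776819, minus strand) had 3249 and 3813 CPM at 3D and 1457 and 713 CPM at 14D, a change of -1.78 (SE 0.281, adjusted p 0.00136), and Kcnk3, a potassium channel of brown adipocytes, had 754 and 948 CPM at 3D and 446 and 347 CPM at 14D, a change of -1.11 (SE 0.266, adjusted p 0.023). In the sum over all adipocyte nuclei neither Gk nor Ppargc1a passed, and there the 14D mice had the larger share of beige-like nuclei. Acot11 rose by 1.89 (SE 0.246, adjusted p 0.000242), and Elovl3 had 0 UMIs in both 3D mice and 171 and 201 at 14D, at least 2.69-fold higher. Ucp1 had 1134 and 274 CPM at 3D and 640.3 and 656 CPM at 14D, a change of -0.042 (SE 0.368, adjusted p 0.97). Its direction turned on 1 mouse: without young 3D replicate 1 the change was 1.30 (adjusted p 0.0144). Cidea, a lipid droplet protein of brown adipocytes, had a log2 difference of -0.21 (SE 0.217, adjusted p 0.682), and none of the 20 tested genes of the citric acid cycle and respiratory chain passed, with 16 lower and a median of -0.35.

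**Figure D4:**
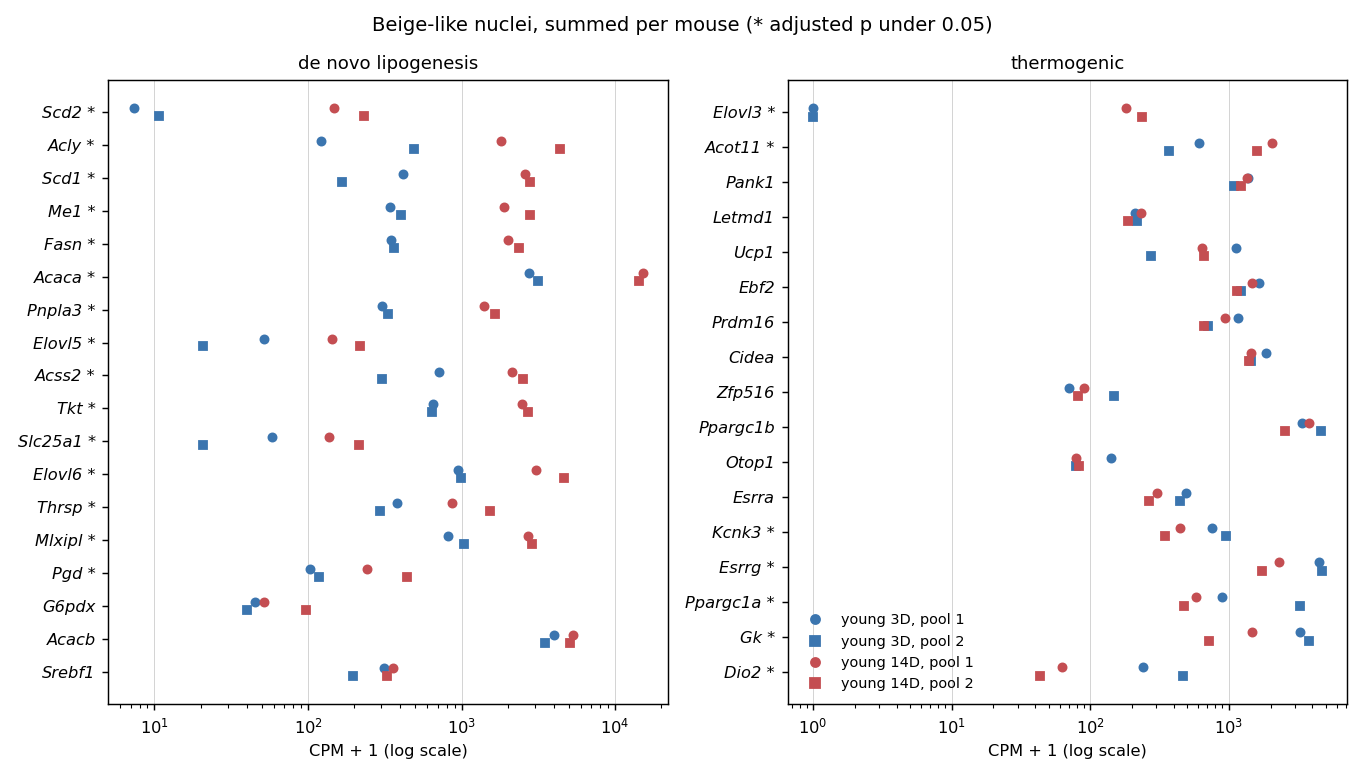
Level in CPM (log axis, plotted as CPM + 1) of genes of de novo lipogenesis and of thermogenesis in the beige-like nuclei of each young cold mouse, 1 point per mouse. Acly, Acaca, Fasn and Scd1 are higher in both 14D mice, and Dio2, Ppargc1a, Esrrg and Gk are lower.

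Input and fuel receptors changed in single genes. Adrb3, the adrenergic receptor that drives lipolysis in fat, was the single gene of 15 tested in its list that passed, with 190.0 and 205 CPM at 3D and 464 and 378 CPM at 14D and a rise of 1.10 (SE 0.270, adjusted p 0.0261). Irs2, an adaptor of the insulin receptor, had 108 and 284 CPM at 3D and 56.7 and 17.7 CPM at 14D, a change of -2.37 (SE 0.583, adjusted p 0.0261), and was the only one of 10 tested genes of insulin signalling to pass. Acsl5 rose by 3.53 (SE 0.287, adjusted p 8.96e-06) and Fabp3, a fatty acid binding protein, changed by -1.51 (SE 0.334, adjusted p 0.0134). In triglyceride synthesis Agpat2 rose by 1.37 (SE 0.343, adjusted p 0.0283), Gpd1 rose by 1.36 (SE 0.274, adjusted p 0.0074), and Gpat3, which starts the pathway, changed by -1.38 (SE 0.276, adjusted p 0.00699). Klb, the co-receptor for fibroblast growth factor 21, and Kit, the receptor for stem cell factor, were named after their values were seen. Klb rose by 1.90 (SE 0.369, adjusted p 0.00584), and Kit went from 1 UMI at 3D to 316 at 14D (adjusted p 0.000407), a ratio of 45.6 with a 95% exact interval of 8.13 to 1808 for counting error only.

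Members of other lists and 3 genes with small p also passed. Car3, a carbonic anhydrase abundant in white fat, had 1223 and 635 CPM at 3D and 279 and 153 CPM at 14D, a change of -2.10 (SE 0.252, adjusted p 0.00014). Bhlhe40, a clock repressor, rose by 2.34 (SE 0.458, adjusted p 0.0062) and Tgfbr2, a receptor for transforming growth factor beta, by 1.99 (SE 0.394, adjusted p 0.00646). The transcription factor Zbtb16 changed by -1.43 (SE 0.305, adjusted p 0.0102), Slit3 by -2.77 (SE 0.338, adjusted p 0.000165), Cntfr by -4.89 (SE 0.539, adjusted p 7.27e-05) and Lhfpl2 by -3.49 (SE 0.371, adjusted p 6.97e-05). Ryr2, a calcium release channel, had 0 UMIs in both 3D mice and 39 and 32 at 14D, at least 1.03-fold higher, so little more than the floor allows. Sorcs2 and Rbfox1, also at 0 UMIs at 3D, were at least 4.14-fold and 8.86-fold higher.

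The counts of genes that passed shifted when nuclei were thinned or a mouse was left out, while the tested lipogenic genes stayed higher at 14D. Depth moved with time in both pools, and thinning did not even out the number of nuclei per mouse. Depth and time thus cannot be told apart. When nuclei with at least 800 UMIs were thinned to 800 and the others left out, fewer genes could be tested. Of 1485 tested genes 96 passed, 13 of 16 tested lipogenic genes rose and 5 of 15 tested thermogenic genes fell. Without young 14D replicate 2 the count was 105, with 11 of 17 lipogenic genes rising and 2 of 18 thermogenic genes falling, and without young 3D replicate 2 it was 129. Of the 199 genes, 69 passed when any 1 of the 4 mice was left out. In 196 of the 199 the groups did not overlap, against 48.9% of all genes tested. The 199 were picked by a test of these same groups, so this adds no separate support. Of the 11 fibroblast markers 8 had no UMI in beige-like nuclei of these mice, and the 9 adipocyte markers summed to 20878 and 15446 CPM at 3D and 21537 and 17906 at 14D. The mean mitochondrial share of UMIs in beige-like nuclei was 0.0617% and 0.0926% at 3D and 0.135% and 0.206% at 14D, and its part in the results was not tested.

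Whether the change was larger in beige-like nuclei than in the other adipocyte nuclei of the same mice was tested directly, as an added comparison with mouse as a term. The other nuclei were all remaining sub-clusters, pooled. The p-values rest on 4 mice and on a spread shared across genes. Their size is thus no measure of how far mice of the same time differed. The difference of the 14D minus 3D changes passed for 162 of 9672 genes (1.67%), 100 above 0 (1.03%) and 62 below 0 (0.641%). Of the 19 lipogenic genes tested 8 passed. Scd1 changed more in beige-like nuclei, by 1.90 (adjusted p 2.88e-09), as did Pnpla3, by 1.79 (adjusted p 5.55e-09), Fasn, by 1.32 (adjusted p 8.73e-05), Acly, by 1.07 (adjusted p 0.0108), Acaca, by 1.05 (adjusted p 0.000973), Mlxipl, by 0.96 (adjusted p 0.00444), and Thrsp, by 0.92 (adjusted p 0.0251). Elovl6 changed less in them, by -1.91 (adjusted p 1.38e-10). For Tkt the difference was 0.72 (adjusted p 0.107) and for Acss2 0.14 (adjusted p 0.931), neither past the threshold.

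For several genes of the thermogenic list the difference was below 0. It was -2.04 (adjusted p 2.32e-13) for Ppargc1a, -1.80 (adjusted p 7.22e-10) for Gk, -1.89 (adjusted p 8.3e-09) for Kcnk3, -2.22 (adjusted p 0.00532) for Dio2, -1.17 (adjusted p 0.000429) for Cidea and -1.35 (adjusted p 0.0476) for Ucp1. This comparison was not repeated with a mouse left out. The changes of Ucp1, Ppargc1a and Kcnk3 in beige-like nuclei depended on single mice, as given above, so their differences may do so too. Ppargc1a had 130 and 199 CPM at 3D and 161 and 240.2 CPM at 14D in the other adipocyte nuclei, so that its fall was seen in the beige-like nuclei and not there. For Esrrg, which was also lower in the other nuclei at 14D (217 and 204 CPM) than at 3D (442 and 404 CPM), the difference was -0.18 (adjusted p 0.871). Pygl changed more in beige-like nuclei, by 2.42 (adjusted p 1.38e-10), and Car3 fell in them with a difference of -2.10 (adjusted p 1.28e-12).

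In the other adipocyte sub-clusters the calls depended on single mice. In the Npr3-high-like nuclei 1 of 7816 genes passed (0.0128%), Prune2, with 5.74 and 0 CPM at 3D and 118 and 61.4 CPM at 14D (adjusted p 0.0366). From 3 UMIs at 3D to 163 at 14D its ratio was 30.1, with a 95% exact interval of 10.1 to 148 for counting error only. It did not pass with any of the 4 mice left out or without the pool as a block. In sub-cluster 1, 3 of 8061 passed (0.0372%): Hephl1, Atp8a1 and Elovl6. Leaving out the pool 2 mouse of either time gave 0, against 34 without young 14D replicate 1, 29 without young 3D replicate 1, and 17 at a clustering resolution of 0.4. Elovl6 had 135 and 80.9 CPM at 3D and 1006 and 2443 CPM at 14D there, a rise of 3.92 (SE 0.599, adjusted p 0.0349), and Atp8a1 rose by 1.58 (SE 0.232, adjusted p 0.0337). The rise of Elovl6 was thus seen outside the beige-like nuclei too.

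The shallow sub-cluster 2 held 214 and 64 nuclei in the 3D mice and 190 and 15 in the 14D mice. In the mouse with 15 nuclei, Acly had 43 UMIs, Elovl6 16 and Nnat 0. In this sub-cluster 11 of 4590 genes passed (0.24%), 10 higher (0.218%) and 1 lower (0.0218%, Nnat) at 14D. They included the hemoglobin genes Hba-a1, Hba-a2 and Hbb-bs, which belong to red blood cells, and Hba-a1 had 13.7 and 29.3 CPM at 3D and 1947 and 135 CPM at 14D, so that 1 mouse held most of it. Acly had 211 and 161 CPM at 3D and 1221 and 1939 CPM at 14D, a rise of 2.91 (SE 0.473, adjusted p 0.000604), and Elovl6 rose by 3.87 (SE 0.612, adjusted p 0.000452). Without young 14D replicate 1 the count was 3, and Acly passed whichever of the 4 mice was left out.

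In fibroblast nuclei 2 of 7809 genes passed (0.0256%), both higher at 14D. Prickle1, of planar cell polarity (chromosome 15, 93499114 to 93595891, minus strand), had 332 and 325 CPM at 3D and 785 and 671 CPM at 14D, a rise of 1.13 (SE 0.180, adjusted p 0.033). Sned1, an extracellular matrix gene (chromosome 1, 93235841 to 93301065, plus strand), had 273 and 339 CPM at 3D and 536 and 628 CPM at 14D, a rise of 0.93 (SE 0.161, adjusted p 0.0477). Both groups were apart in each gene, which held for 32.2% of all genes tested. Since a test of these groups picked the 2 genes, this adds no separate support. Neither gene passed whichever of the 4 mice was left out, or without the pool as a block. Among list members none of the following passed. The log2 difference was -0.25 (SE 0.205, adjusted p 0.989) for Dpp4 of interstitial progenitors, -0.45 (SE 0.231, adjusted p 0.989) for Col4a1 of basement membrane, 0.19 (SE 0.153, adjusted p 0.989) for the fibrillar collagen gene Col3a1, and 1.27 (SE 0.339, adjusted p 0.579) for Fabp4, an adipocyte differentiation gene. Adipocyte markers summed to 973 and 2382 CPM at 3D and 1276 and 2328 at 14D in these nuclei.

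In immune nuclei 0 of 3746 genes passed with edgeR and 0 with DESeq2, with 156 and 34 at an unadjusted p under 0.05, and the smallest adjusted p was 0.677. The macrophage gene F13a1 had 5682 and 5293 CPM at 3D and 6102 and 7383 CPM at 14D, a log2 difference of 0.29 (SE 0.211, adjusted p 0.998), and Mrc1 had 2024 and 2373 CPM at 3D and 2694 and 2817 CPM at 14D, a difference of 0.33 (SE 0.211, adjusted p 0.998). Lpl, lipoprotein lipase, had 165 and 83.4 CPM at 3D and 475 and 319 CPM at 14D, a change of 1.74 (SE 0.387, adjusted p 0.677). In endothelial nuclei 0 of 1954 genes passed with either tool, with 97 and 30 at an unadjusted p under 0.05. Cd36, a fatty acid transporter of vessels, had 2219 and 1798 CPM at 3D and 3435 and 4877 CPM at 14D and Scd1 856 and 87.3 CPM at 3D and 2589.8 and 464 CPM at 14D, changes of 1.05 (SE 0.349, adjusted p 0.85) and 1.89 (SE 0.433, adjusted p 0.538). Adipocyte markers in endothelial nuclei summed to 6657 and 3857 CPM at 3D and to 13544 and 4254 at 14D, highest in the mouse with the most Scd1. These classes held 43 to 161 endothelial and 88 to 156 immune nuclei per mouse, fewer than the 486 to 1105 adipocyte nuclei, so the 2 zero counts come with less depth.

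The same interval was compared between young and aged mice by a test of the difference itself. In adipocytes it passed for 9 of 10276 genes (0.0876%), 3 above 0 (0.0292%) and 6 below 0 (0.0584%) as young minus aged, and in fibroblast, immune and endothelial nuclei for 0, with 402, 108 and 65 at an unadjusted p under 0.05. No gene passed in every fit with 1 of the 8 mice left out, and the count was 0 in 6 of these fits, 2 without aged 3D replicate 1 and 7 without young 14D replicate 1. Of the 59 genes that passed in young adipocytes 51 had the same sign in aged mice. The share with the same sign over all genes tested was not computed, so no shared response is read from this count. Gk had 30.0 and 24.8 CPM in the aged mice at 3D and 162 and 139.9 at 14D, a change of 2.46 (SE 0.279) there against -0.20 in young mice, which were high at both times. Atp8a1 rose in young mice and had 144 and 125 CPM at 3D and 121 and 136 at 14D in aged mice. The other 7 genes are given with the results set apart for a closer look.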

How the data were processed

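Nuclei of inguinal fat were hashed, pooled and sequenced as 10x libraries. Per the study's methods, reads went through Cell Ranger against GRCm38 with introns, CellBender to remove ambient RNA, and demuxEM to keep singlets. The authors deposited 1 matrix of UMI counts per aliquot, which holds whole numbers. Groups came from the sample sheet that the authors deposited, since the labels name pools alone. Genes under 6 UMIs in an aliquot were not listed, so an unlisted gene was set to 0, although up to 5 UMIs are possible. Ambient removal can also lower true low counts.

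A minimum of 300 genes and a maximum of 5% mitochondrial UMIs left 15233 nuclei. Scrublet in scanpy 1.11.5 marked 517 doublets (3.394%), and 85 nuclei with 2 or more liver genes were removed. Clusters were made in Seurat 5.3.0 in R 4.3.3. Sums of UMIs over each class in a mouse went into edgeR 4.0.16 (filterByExpr, TMM, quasi-likelihood F-test) over all 12 mice with group and pool as terms, with Benjamini-Hochberg adjusted p under 0.05 over all genes tested. CPM used TMM-scaled totals, except in the other adipocyte nuclei, where raw totals were used. The SE is the log2 change over the square root of F. DESeq2 1.42.0 was an alternative.

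The members and gene lists were chosen with earlier results of these data known. Named genes were the 12 with the smallest p in each direction among those that passed and moved alike in both pools, list members that passed, the 2 highest members of a list where none passed, and 10 set adipocyte genes. Others are marked as chosen after their values were seen. Some genes that passed are not reported here.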

Additional observations from a re-analysis of the deposited data

Results flagged for a closer look

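In adipocytes 9 genes were set apart because their change from 3D to 14D differed between young and aged mice, by edgeR's test of the difference itself (adjusted p between 0.0289 and 0.0378). None of them passed in every fit with 1 of the 8 mice left out, and in 6 of these fits no gene passed, although all 9 kept their sign. The remaining mice had helped to pick the 9, so the kept signs add no separate support. The difference, young minus aged on the log2 scale, was -2.96 for Celsr2, 2.08 for Atp8a1, -2.74 for Fgf14, -2.49 for Gm34084, -2.65 for Gk, -2.29 for Cntfr, 3.73 for Arntl, -2.60 for Sema3a and 2.43 for Pdgfd. For Arntl, which encodes the clock activator BMAL1, the aged mice carried the difference: they had 59.4 and 74.3 CPM at 3D and 5.94 and 9.24 at 14D, while the young mice had 6.11 and 10.7 at 3D and 10.2 and 15.0 at 14D. Time of day at collection was not among the values used here. For Fgf14, the aged mice had 117 and 89.0 CPM at 3D and 571 and 426 at 14D, and the young mice 909 and 927 at 3D and 626 and 711 at 14D. Celsr2 changed by -1.38 (SE 0.235) in young mice and by 1.58 (SE 0.274) in aged mice.

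A further count was set apart because the change differed between 2 groups of nuclei of the same young mice: 162 genes in which beige-like and other adipocyte nuclei differed, as described above.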

How the results depend on the processing

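Adipocyte calls (59) were 99 with DESeq2, 91 with no filter on low counts, 29 with no replicate block, 0 without beige-like nuclei, and 8 to 35 when 1 of the 4 mice was left out. Beige-like calls (199) were 95 with DESeq2, 96 thinned to 800 UMIs, 384 with only the 4 young cold mice, 157 with no replicate block and 105 to 238 with a mouse left out. The cause of these shifts was not tested. Fibroblast calls (2) were 1 with at least 500 genes per nucleus, 22 with no filter, 0 with no replicate block, 4 over genes listed in all 8 aliquots, 8 with the 4 young cold mice, 11 with the 6 young mice, 0 from the second aliquot and 0 to 3 with a mouse left out. Immune calls (0) were 8 with no filter. Endothelial calls (0) were 11 with no filter, 1 thinned, 2 with liver-marked nuclei kept, and 0 to 2 with a mouse left out. Npr3-high-like calls (1) were 4 with DESeq2, 0 with no replicate block, 0 at a resolution of 0.4, 0 with all variable genes kept and 0 to 5 with a mouse left out. Sub-cluster 1 calls (3) were 9 with DESeq2, 17 at a resolution of 0.4, 11 with all variable genes and 0 to 34 with a mouse left out. Sub-cluster 2 calls (11) were 1 with DESeq2 and 3 to 15 with a mouse left out. The age difference (9) was 29 with DESeq2 and 0 to 7 with a mouse left out. Ucp1 in beige-like nuclei, -0.042, was 1.30 without young 3D replicate 1 and lay between -0.83 and 1.30 with a mouse left out.

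For 453 named results, 5569 of 5959 alternative values stayed on the same side of the threshold, 343 no longer passed, 46 newly passed and 1 reversed. Results that had not passed in the main fit, such as all immune and endothelial ones, could change sign and still count as the same. The first count is thus no measure of how stable the directions were. No difference in a share moved by more than its spread. All 59 adipocyte and 199 beige-like calls kept their sign with any mouse left out. The remaining mice had helped to pick these genes, so the kept signs add no separate support. Over the alternatives, 11 to 15 lipogenic genes rose and 2 to 5 thermogenic genes fell in beige-like nuclei. Counts of 2 mice a side, with 47 beige-like nuclei and 15 nuclei of sub-cluster 2 in the smallest, limit what can be called.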
